A study of Homo sapiens with 6 samples.

Results

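PANC-1 and MIA-PaCa2, established human cell lines from pancreatic ductal adenocarcinoma, were compared with each other by RNA sequencing. Each line was sequenced in 3 forms, with ESRP1 overexpressed, with ESRP2 overexpressed, or with the control construct named LPCX, which is a retroviral expression vector. The comparison takes all 6 libraries of the series, 3 of PANC-1 and 3 of MIA-PaCa2, 1 for each line and construct. Libraries with the same construct were set against each other, so each difference between the lines was measured 3 times. Nothing in the labels gives a second culture of any form. The SEs and p-values below therefore rest on how far the line difference varied over the constructs. Each variance was also drawn towards those of other genes or transcripts in the fit. Differences between cultures are not measured by them. The labels do not say whether an overexpressing form is 1 clone or a pool. Each line comes from a single tumour, so nothing here extends to other tumours.

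ESRP1 and ESRP2 are epithelial splicing regulators, RNA-binding proteins that decide which exons an epithelial cell keeps and that are lost when carcinoma cells turn mesenchymal. PANC-1 and MIA-PaCa2 are both widely used as dedifferentiated models of the disease, with much vimentin and little E-cadherin. Pancreatic cancers are commonly sorted into a classical subtype, with gut and ductal identity genes, and a basal-like or quasi-mesenchymal subtype, with squamous and mesenchymal genes. TPM, the unit used throughout, is an abundance per transcript length that sums to 1000000 in each library. In bulk RNA, fewer cells that express a gene and less RNA per cell cannot be told apart.

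The overexpressed genes matched the labels in all 6 libraries. ESRP1 stood at 491 TPM in PANC-1 ESRP1 and at 367 TPM in MIA-PaCa2 ESRP1, against at most 0.261 TPM in the other 4 libraries. ESRP2 stood at 308 TPM in PANC-1 ESRP2 and at 197 TPM in MIA-PaCa2 ESRP2. The lines differed without the construct, since ESRP2 was at 34.8 TPM in PANC-1 LPCX and 37.7 TPM in PANC-1 ESRP1, against 0.0704 TPM in the LPCX form and 0.106 TPM in the ESRP1 form of MIA-PaCa2. PANC-1 thus held ESRP2 RNA without the ESRP2 construct, and MIA-PaCa2 had close to none. The line difference of ESRP2 over all constructs was 3.61 ± 0.90 (log2 of TPM + 1, SE, 3 pairs, adjusted p = 0.0127), and it was no longer called when an LPCX or an ESRP1 library was left out or when the construct was not a term. ESRP1 did not pass (0.23 ± 0.11, adjusted p = 0.0903).

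As a check of the labelled cell type, KRT8, KRT18 and KRT19, keratins of ductal epithelium, were above 200 TPM in every library, whereas KRT7 reached at most 2.00 TPM and CFTR at most 0.013 TPM. Of 5 acinar enzymes, PRSS1, CPA1, CELA3A, AMY2A and PNLIP, 2 were listed at 0 in every library, and their sum was 0.173 to 0.729 TPM in PANC-1 and 0 TPM in MIA-PaCa2. All 4 islet hormones were listed at 0. Sums over 4 leukocyte markers (0.442 to 0.861 TPM in PANC-1, 0.574 to 1.58 TPM in MIA-PaCa2) and over 3 endothelial markers (0.214 to 0.353 TPM in PANC-1, 1.35 to 3.20 TPM in MIA-PaCa2) were low in both. The 4 fibroblast markers summed to 66.7 to 108 TPM in PANC-1 and 0.524 to 0.880 TPM in MIA-PaCa2. In PANC-1 nearly all of this was COL1A1, which was at 0.449 to 0.723 TPM in MIA-PaCa2.

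The lines differed over a large part of the transcriptome. Of 11829 genes that reached 5 TPM in 2 libraries or more, 2144 (18.1%) were higher in PANC-1 and 1453 (12.3%) were lower, at an adjusted p of 0.05 and a difference of 2-fold or more on the log2(TPM + 1) scale. All PANC-1 libraries lay above all MIA-PaCa2 libraries for 5100 genes (43.1%) and below them for 4298 genes (36.3%). The median difference over all genes tested was 0.08, with quartiles of -0.52 and 0.72. Genes that were on in a single line were mostly PANC-1 genes. A total of 137 coding genes had at least 5 TPM in every PANC-1 library and under 0.1 TPM in every MIA-PaCa2 library, and 51 of these were listed at 0 throughout MIA-PaCa2. The opposite pattern was found for 32 coding genes, 6 of them listed at 0 throughout PANC-1. These genes were chosen by their values, so the counts carry no test.

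**Figure D1:**
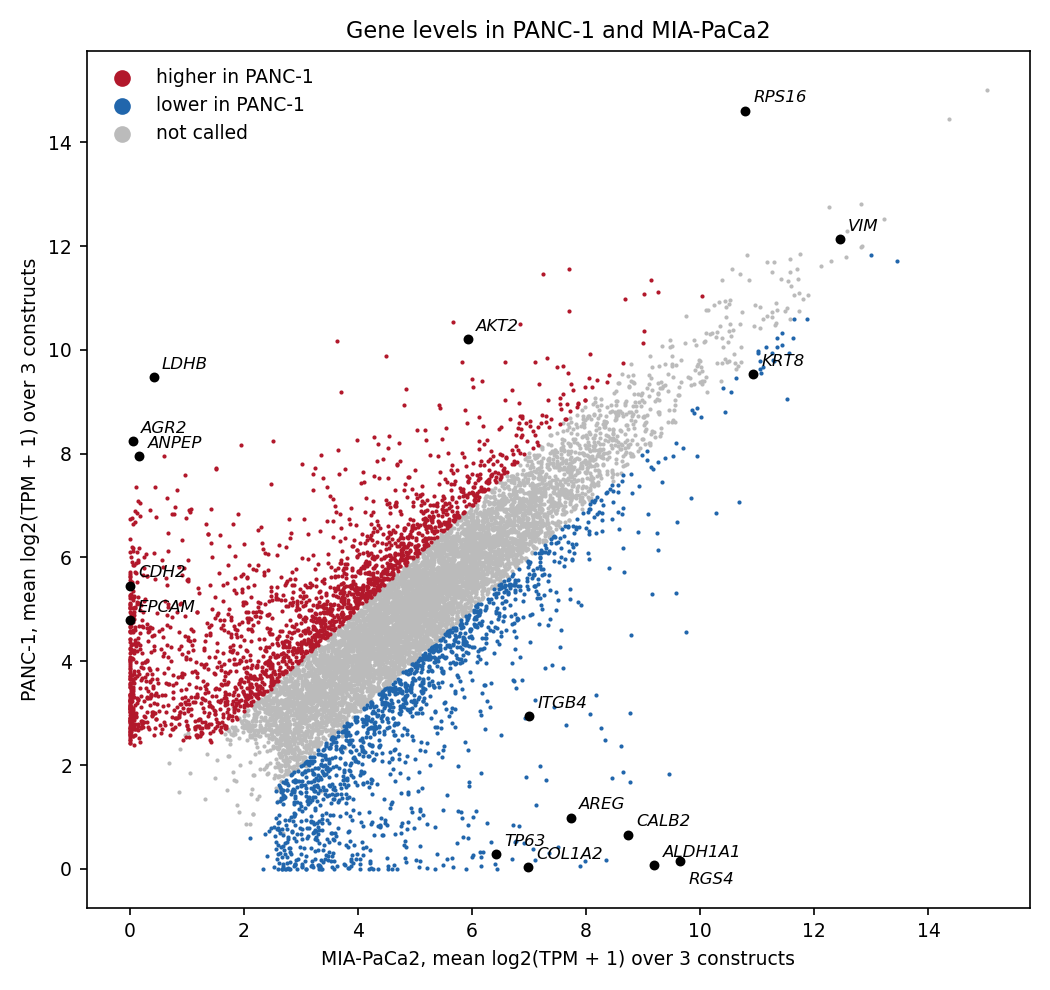
Mean log2(TPM + 1) of each tested gene in PANC-1 (vertical axis) and MIA-PaCa2 (horizontal axis), over 3 constructs each. Red points are the 2144 genes called higher and blue points the 1453 called lower in PANC-1; LDHB and AGR2 lie along the left edge and RGS4 and ALDH1A1 along the bottom, so the extremes were on in 1 line and close to 0 in the other.

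The largest difference in favour of PANC-1 was LDHB, the heart-type subunit of lactate dehydrogenase (chr12:21635342-21657842, GRCh38). It stood at 646, 726 and 757 TPM in PANC-1 LPCX, ESRP1 and ESRP2, against 0.320, 0.574 and 0.156 TPM in MIA-PaCa2 with the same constructs (9.05 ± 0.11, adjusted p = 1.13e-06). LDHA, the muscle-type subunit, was at 717, 890 and 876 TPM in PANC-1 and 679, 754 and 757 TPM in MIA-PaCa2, and was not called (0.18 ± 0.07, adjusted p = 0.0513). LDHA was therefore abundant in all 6 libraries and LDHB in those of PANC-1. AGR2, a protein disulfide isomerase of mucus-secreting epithelia, followed with 337, 286 and 284 TPM in PANC-1, against 0, 0 and 0.114 TPM in MIA-PaCa2 (8.19 ± 0.10). ANPEP, a membrane aminopeptidase, stood at 280, 274 and 196 TPM in PANC-1 and at most 0.271 TPM in MIA-PaCa2 (7.78 ± 0.11). APOE, the lipid carrier apolipoprotein E, was at 184, 262 and 313 TPM in PANC-1 and at most 0.914 TPM in MIA-PaCa2 (7.35 ± 0.10). These genes were chosen for the size of their difference, so the lack of overlap between the lines follows from that choice. All PANC-1 libraries lay above all MIA-PaCa2 libraries for 43.1% of all genes tested.

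At the other end, RGS4, a regulator of G-protein signalling (chr1:163068871-163076802), was at 0.160, 0.0570 and 0.123 TPM in PANC-1, against 857, 865 and 690 TPM in MIA-PaCa2 (-9.49 ± 0.09, adjusted p = 1.13e-06). ALDH1A1, which makes retinoic acid and is used as a marker of stem-like cancer cells, was at 0, 0.0358 and 0.108 TPM in PANC-1, against 584, 439 and 786 TPM in MIA-PaCa2 (-9.13 ± 0.15). CALB2, the calcium-binding protein calretinin, was at 0.698, 0.371 and 0.687 TPM in PANC-1 and 363, 434 and 495 TPM in MIA-PaCa2 (-8.08 ± 0.12). These genes were among the more abundant of MIA-PaCa2 and nearly silent in PANC-1. Among the abundant genes of the cytoskeleton and metabolism, GAPDH of glycolysis was lower in PANC-1, at 3336, 3722 and 3858 TPM, against 7979, 8270 and 8088 TPM in MIA-PaCa2 (-1.16 ± 0.09, adjusted p = 0.000102), and so was S100A4, a calcium-binding protein of motile cells, at 634, 544 and 430 TPM in PANC-1 and 3107, 2709 and 3038 TPM in MIA-PaCa2 (-2.47 ± 0.12).

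Most junction genes that were called stood higher in PANC-1, and most called keratins and epithelial transcription factors stood lower. Of 26 tested genes for junctions and epithelial identity, 16 (61.5%) were higher and 2 (7.69%) lower in PANC-1, with a median difference of 2.32. Over all genes tested, 18.1% were higher and 12.3% lower. The cell surface glycoprotein EPCAM was at 24.3, 27.8 and 28.2 TPM in PANC-1 and listed at 0 in all 3 MIA-PaCa2 libraries. CDH1, which encodes E-cadherin, was at 3.89, 8.59 and 6.98 TPM in PANC-1 and 0.157, 0.112 and 0.173 TPM in MIA-PaCa2 (2.65 ± 0.23, adjusted p = 0.000161). The lowest of the PANC-1 values, in LPCX, was still well above every MIA-PaCa2 value. CLDN7, a claudin of tight junctions, stood at 24.5, 22.5 and 20.7 TPM in PANC-1 and at most 0.0643 TPM in MIA-PaCa2 (4.52 ± 0.12). The desmosome and envelope protein periplakin, PPL, was at 98.9, 120 and 114 TPM in PANC-1 and at most 0.151 TPM in MIA-PaCa2 (6.62 ± 0.09). Both members that were lower are also junction genes, the desmosomal plaque protein DSP (3.43, 7.30 and 5.20 TPM in PANC-1, 15.4, 16.9 and 18.6 TPM in MIA-PaCa2) and TJP3 of tight junctions, which had at most 0.473 TPM in PANC-1 and at least 4.86 TPM in MIA-PaCa2.

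Of 7 tested keratins 1 (14.3%) was higher and 4 (57.1%) lower in PANC-1, against 18.1% and 12.3% of all genes. The keratin median was -1.16. KRT8 was at 684, 823 and 716 TPM in PANC-1, against 1772, 2223 and 1854 TPM in MIA-PaCa2 (-1.39), and its partner KRT18 at 695, 737 and 680 TPM in PANC-1, against 1421, 1747 and 1571 TPM in MIA-PaCa2 (-1.16). KRT19, a ductal keratin, was not called, since it missed the 2-fold minimum at 502, 417 and 366 TPM in PANC-1 and 234, 313 and 250 TPM in MIA-PaCa2. KRT13 and KRT15, keratins of stratified and basal epithelium, were at most 0.633 and 7.55 TPM in PANC-1, against at least 35.6 and 32.5 TPM in MIA-PaCa2. Of 5 epithelial transcription factors 1 (20%) was higher and 3 (60%) were lower. TP63, the master regulator of squamous identity, was at 0.288, 0.269 and 0.116 TPM in PANC-1 and 85.1, 110 and 64.2 TPM in MIA-PaCa2 (-6.13 ± 0.13). EHF, an ETS factor of epithelia, was at most 0.0298 TPM in PANC-1 and at least 30.7 TPM in MIA-PaCa2, whereas GRHL3, a grainyhead factor of surface epithelium, was at 10.0, 15.4 and 12.3 TPM in PANC-1 and at most 0.0586 TPM in MIA-PaCa2.

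**Figure D2:**
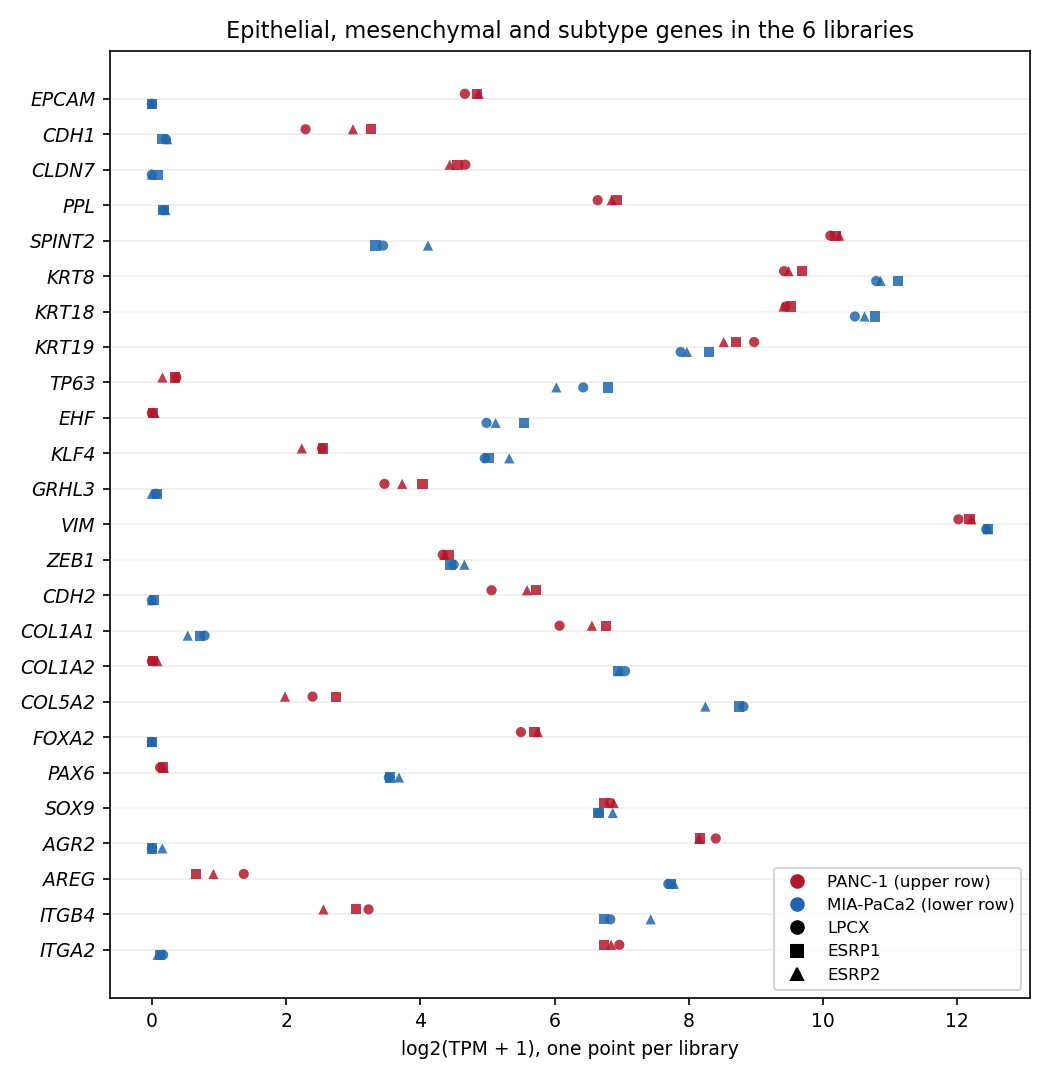
Levels of 25 genes for epithelial, mesenchymal and subtype state in the 6 libraries, as log2(TPM + 1) on the horizontal axis; red points in the upper row of each gene are PANC-1 and blue points in the lower row MIA-PaCa2, with a shape for each construct. VIM, ZEB1 and SOX9 lie close together in both lines, whereas EPCAM, CDH2 and FOXA2 sit near 0 in MIA-PaCa2 and TP63, EHF and COL1A2 near 0 in PANC-1.

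Mesenchymal genes were split between the lines as well, although VIM and ZEB1 were present in both. VIM, the intermediate filament vimentin, was at 4142, 4647 and 4738 TPM in PANC-1 and 5523, 5605 and 5620 TPM in MIA-PaCa2, and ZEB1, the repressor of CDH1, was at 19.2, 20.4 and 19.6 TPM in PANC-1 and 21.6, 20.8 and 24.2 TPM in MIA-PaCa2. Neither was called, although the PANC-1 values were the lower ones for both genes (-0.31 ± 0.09, adjusted p = 0.0191, and -0.16 ± 0.08, adjusted p = 0.108). Of 22 tested mesenchymal genes 7 (31.8%) were higher and 8 (36.4%) lower in PANC-1, with a median of -0.10. Over all genes tested, 18.1% were higher and 12.3% lower. CDH2, or N-cadherin, was at 32.4, 51.8 and 47.2 TPM in PANC-1 and at most 0.0212 TPM in MIA-PaCa2 (5.45 ± 0.15), so PANC-1 held RNA of both E- and N-cadherin, and MIA-PaCa2 had less than 0.2 TPM of either.

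The fibrillar collagens differed chain by chain. COL1A1, the alpha 1 chain of type I collagen, was at 66.4, 108 and 93.1 TPM in PANC-1 and 0.723, 0.649 and 0.449 TPM in MIA-PaCa2 (5.78 ± 0.17), and COL1A2, the alpha 2 chain, was at 0, 0.0148 and 0.0593 TPM in PANC-1 and 132, 122 and 124 TPM in MIA-PaCa2 (-6.95). The chains join into 1 trimer in fibroblasts, and here each line held RNA of a single one of them. COL5A2 was at 4.26, 5.68 and 2.96 TPM in PANC-1 and 449, 430 and 303 TPM in MIA-PaCa2 (-6.23 ± 0.09), and the type VI chains COL6A1, COL6A2 and COL6A3 were lower in PANC-1 as well (-3.11, -3.20 and -5.34). MMP2, a gelatinase, was at 31.2, 30.6 and 22.3 TPM in PANC-1 and at most 0.118 TPM in MIA-PaCa2. FN1 and SPARC, otherwise common in mesenchymal cells, stayed under 1 TPM in all 6 libraries.

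Most endoderm factors were low in both lines, and 10 of 32 listed pancreatic and endoderm transcription factors reached the filter. Of these, 4 (40%) were higher and 3 (30%) lower in PANC-1, against 18.1% and 12.3% of all genes tested. FOXA2, a pioneer factor of the foregut, was at 44.2, 51.1 and 52.9 TPM in PANC-1 and listed at 0 in all of MIA-PaCa2, and ONECUT3 was at 23.5, 23.5 and 22.7 TPM in PANC-1 and at most 0.138 TPM in MIA-PaCa2. PAX6, an islet and eye factor, was at most 0.133 TPM in PANC-1, against 10.6, 10.7 and 11.8 TPM in MIA-PaCa2 (-3.43 ± 0.12), and NR5A2, an acinar and ductal nuclear receptor, was at 2.09, 2.18 and 1.71 TPM in PANC-1 and 15.2, 17.3 and 7.99 TPM in MIA-PaCa2. GATA6, the factor most used to mark the classical subtype, was at 0.69 to 0.91 TPM in PANC-1 and 0.13 to 0.16 TPM in MIA-PaCa2, below the filter in both.

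Of 39 genes of the classical subtype 5 were tested, 3 of them higher (AGR2, FOXQ1 and PLS1) and 2 lower in PANC-1 (LYZ and GPRC5A). Of 20 tested genes of the basal-like and quasi-mesenchymal subtype 1 (5%) was higher, CAV1 of caveolae, and 11 (55%) were lower. Their median was -1.15. For comparison, 18.1% of all genes tested were higher and 12.3% lower. AREG, the EGF receptor ligand amphiregulin, was at 1.58, 0.584 and 0.889 TPM in PANC-1 and 206, 212 and 219 TPM in MIA-PaCa2 (-6.75). UCA1, a long noncoding RNA, was at most 0.222 TPM in PANC-1 and 97.2, 105 and 108 TPM in MIA-PaCa2 (-6.51 ± 0.09). The basal-like genes that moved were thus mostly higher in MIA-PaCa2.

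Neuroendocrine and neuronal genes did not follow 1 direction. Of 9 neuroendocrine genes 3 (33.3%) were higher and 4 (44.4%) lower in PANC-1, against 18.1% and 12.3% of all genes tested. SCG2, a granin of secretory granules, was at 0.584, 0.295 and 0.395 TPM in PANC-1 and 146, 143 and 80.3 TPM in MIA-PaCa2 (-6.40 ± 0.18), whereas SYP, the vesicle protein synaptophysin, was at 5.74, 7.68 and 6.08 TPM in PANC-1 and 1.72, 2.46 and 2.80 TPM in MIA-PaCa2 (1.18 ± 0.14). Of 6 neuronal genes 4 (66.7%) were higher and 1 (16.7%) lower in PANC-1. The higher ones included the adhesion molecule L1CAM (139, 188 and 199 TPM in PANC-1, 14.5, 16.1 and 18.2 TPM in MIA-PaCa2) and the microtubule protein MAP2 (19.5, 21.8 and 27.5 TPM in PANC-1, 0.883, 1.01 and 0.607 TPM in MIA-PaCa2).

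HOX genes, which carry positional identity along the body axis, and imprinted genes, which are active from a single parental copy, stood higher in PANC-1 wherever they were called. All 7 tested HOXC genes were higher in PANC-1, with a median of 4.04. HOXC10 was at 72.2, 88.7 and 83.5 TPM in PANC-1, HOXC13 at 43.4, 46.8 and 55.2 TPM, HOXC9 at 22.0, 29 and 28.4 TPM and HOXC11 at 15.5, 15 and 15.9 TPM, and all 4 were listed at 0 in every MIA-PaCa2 library. HOXC6 was on in both lines, at 25.6, 26.1 and 26.6 TPM in PANC-1 and 3.43, 2.66 and 3.62 TPM in MIA-PaCa2. Of 9 HOXB genes 5 were higher, with HOXB7 at 78, 82.7 and 91.4 TPM in PANC-1 and 15.6, 12.8 and 23.7 TPM in MIA-PaCa2 (2.25 ± 0.14). HOXA3 was higher too (1.04 ± 0.13), but lost its call under median ratio scaling. No HOXD gene reached the filter. Of 10 tested imprinted genes 7 (70%) were higher and 0 lower, with a median of 2.10. For comparison, 18.1% of all genes tested were higher and 12.3% lower. MEG3, a maternally expressed noncoding RNA, was at 163, 105 and 72.1 TPM in PANC-1 and at most 0.0454 TPM in MIA-PaCa2 (6.71 ± 0.21). The paternally expressed neighbours SGCE and PEG10 were at 41.1, 47.8 and 51.9 TPM and at 65.0, 80.0 and 86.1 TPM in PANC-1, and at most 0.722 and 3.42 TPM in MIA-PaCa2.

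Of 30 tested genes that are often altered in pancreatic cancer, 8 (26.7%) were higher and 3 (10.0%) lower in PANC-1, with a median of -0.16, against 18.1% and 12.3% of all genes. SMAD4, a transducer of TGF-beta signals, was at 11.6, 12.9 and 13.0 TPM in PANC-1 and 22.7, 24.1 and 24.1 TPM in MIA-PaCa2, and it missed the 2-fold minimum (-0.87 ± 0.07, adjusted p = 0.000109). CDKN2A, a cell cycle inhibitor, was at most 0.0926 TPM in every library. A few driver genes stood far apart between the lines, and some of these were close to 0 in MIA-PaCa2. ARID1B, a subunit of the SWI/SNF chromatin remodeller, was at 26.3, 30.8 and 32.1 TPM in PANC-1 and 0.0268, 0.0328 and 0.0264 TPM in MIA-PaCa2 (4.90). SMARCA4, an ATPase of the same remodeller, was at 15.1, 13.5 and 12.3 TPM in PANC-1 and 148, 152 and 163 TPM in MIA-PaCa2 (-3.41). KDM6A, an X-linked histone demethylase, was at 13.0, 14.5 and 15.6 TPM in PANC-1 and close to 0 in MIA-PaCa2 (3.92), and TGFBR2, the type II TGF-beta receptor, was at 32.1, 36.8 and 36.2 TPM in PANC-1 and 0.273, 0.736 and 0.636 TPM in MIA-PaCa2 (4.55 ± 0.10). Genes near CDKN2A on chromosome 9 were not alike in which lines they were close to 0. CDKN2B, a related inhibitor (chr9:22002903-22009313), was at most 0.0198 TPM in every library, as low as CDKN2A. MTAP, a methionine salvage enzyme (chr9:21802636-21941115), was at 16.9, 14.4 and 13.4 TPM in PANC-1 and at most 0.127 TPM in MIA-PaCa2, KLHL9 (chr9:21329665-21335404) at 18.2, 19.2 and 19.4 TPM in PANC-1 and at most 0.209 TPM in MIA-PaCa2, and FOCAD (chr9:20655625-20995950) at 6.22, 6.75 and 6.6 TPM in PANC-1 and at most 0.0131 TPM in MIA-PaCa2. KLHL9 and FOCAD were named after their values were seen. DNA copy number was not measured in these libraries.

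Differences ran together along several stretches of the genome. Windows of 21 neighbouring tested coding genes were moved along each chromosome, and of 10288 windows 76 had a median difference of 1.5 or more and 19 of -1.5 or less. Overlapping windows were joined into 8 runs, each trimmed to its first and last gene past that step, chosen by their values and given without a test; of all positioned coding genes tested, 18.1% were higher and 11.6% lower. The run with the largest median lay on chromosome 19 from DPF1 to LTBP4 (chr19:38211006-40629820), where 44 of 53 tested genes were higher and 0 lower, with a median of 3.07. It held AKT2, a serine/threonine kinase downstream of PI3K, at 1106, 1234 and 1209 TPM in PANC-1 and 58.7, 58.3 and 62.6 TPM in MIA-PaCa2 (4.28). SPINT2, a serine protease inhibitor of epithelia, was at 1103, 1164 and 1209 TPM in PANC-1 and 9.89, 9.08 and 16.3 TPM in MIA-PaCa2 (6.55 ± 0.14), and DLL3, an inhibitory Notch ligand, at 95.5, 111 and 116 TPM in PANC-1 and 0.933, 0.935 and 1.09 TPM in MIA-PaCa2 (5.77 ± 0.08).

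Many of the most abundant genes that differed lie in this run. RPS16, a small ribosomal subunit protein (chr19:39433137-39435949), was at 29840, 21791 and 23955 TPM in PANC-1 and 1851, 1676 and 1792 TPM in MIA-PaCa2 (3.82 ± 0.10). It has near-identical pseudogene copies, so its level is uncertain to that extent. FBL, the rRNA methyltransferase fibrillarin, PSMC4 of the proteasome, PAF1 of transcription elongation, EIF3K of translation initiation and ACTN4, an actin crosslinker, were higher in PANC-1 as well, by 1.85 for ACTN4 to 4.86 for PAF1. From DPF1 to AKT2, 43 of 45 tested genes were higher, and the 45 together took 5.23, 4.64 and 4.82% of all TPM in PANC-1, against 0.484, 0.469 and 0.495% in MIA-PaCa2. Without RPS16, left out after its share was seen, they took 2.25, 2.46 and 2.43% in PANC-1 and 0.299, 0.302 and 0.316% in MIA-PaCa2. Past AKT2 the pattern ended, since 1 of the next 8 tested genes was higher and their median was 0.26.

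**Figure D3:**
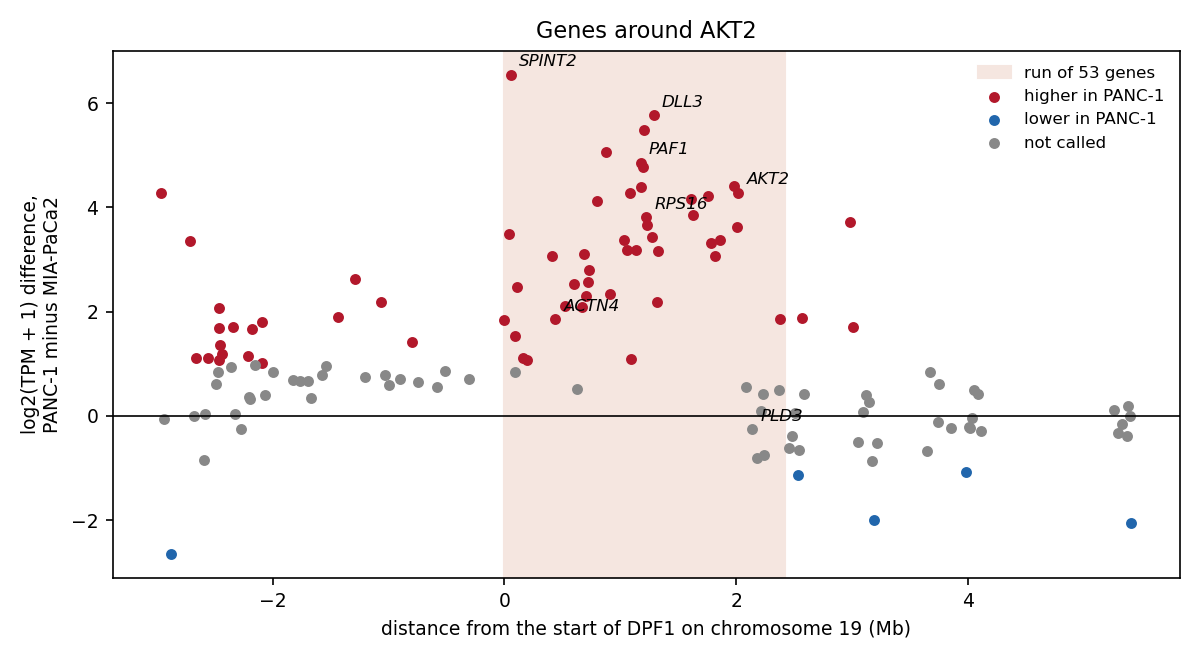
Difference between PANC-1 and MIA-PaCa2 in log2(TPM + 1) for tested coding genes, against distance along chromosome 19 from the start of DPF1; the shaded band is the run of 53 genes, red is higher and blue lower in PANC-1. Nearly all genes from DPF1 to AKT2 lie above 1, and values scatter around 0 beyond AKT2.

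Of the other 7 runs, 5 were higher in PANC-1. They were ZNF600 to CACNG8, also on chromosome 19 (14 of 16 higher, median 1.99), FABP5 to TRIQK on chromosome 8 (17 of 23, median 1.67), TRIM21 to CYB5R2 on chromosome 11 (15 of 21, median 1.60), NEXN to ODF2L on chromosome 1 (14 of 21, median 1.58) and DCTN3 to TOMM5 on chromosome 9 (29 of 35, median 1.52). The longest run, PSD3 to PROSC on chromosome 8 over 19.3 Mb, was lower in PANC-1 for 45 of 62 genes, with a median of -1.49. It held STC1, a secreted glycoprotein hormone, at 0.374, 0.273 and 0.274 TPM in PANC-1 and 136, 211 and 83.1 TPM in MIA-PaCa2, and LOXL2, a lysyl oxidase that crosslinks collagen, at 57.6, 55.8 and 50.2 TPM in PANC-1 and 345, 354 and 309 TPM in MIA-PaCa2. NRG1, a ligand of ERBB3 and ERBB4, lies in the same run and went against it, at 19.5, 20.3 and 20.9 TPM in PANC-1 and at most 0.147 TPM in MIA-PaCa2 (4.31 ± 0.12). By whole chromosomes, the median was highest on chromosome 11 (0.75, with 226 of 633 genes higher and 26 lower) and lowest on chromosome 21 (-0.83, with 7 of 104 higher and 35 lower).

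Interferon-stimulated genes detect and block viruses, and class I antigen presentation genes load peptides for T cells. Of 24 tested interferon genes 14 (58.3%) were higher and 2 lower in PANC-1, with a median of 1.59, against 18.1% higher over all genes tested. IFIT3, which binds antiviral adaptors, was at 165, 204 and 218 TPM in PANC-1 and 7.39, 8.79 and 8.83 TPM in MIA-PaCa2 (4.39 ± 0.06), and IFIH1, the RNA sensor MDA5, at 40.2, 47.3 and 50.1 TPM in PANC-1 and 0.689, 1.31 and 1.13 TPM in MIA-PaCa2 (4.53 ± 0.09). The exceptions were IFITM1, a membrane block to virus entry (17.9, 21.8 and 14.7 TPM in PANC-1, 122, 93 and 109 TPM in MIA-PaCa2), and GBP2, a guanylate-binding protein (-2.24). The interferon ligand IFNL1, in the chromosome 19 run, was itself at 23.5, 20.5 and 26.9 TPM in PANC-1 and at most 0.415 TPM in MIA-PaCa2.

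Of 14 tested antigen presentation genes 8 (57.1%) were higher and 0 lower, against 18.1% and 12.3% of all genes tested. Their median was 1.42. B2M, the light chain of class I molecules, was at 2899, 2606 and 2293 TPM in PANC-1 and 560, 621 and 506 TPM in MIA-PaCa2 (2.20 ± 0.08). PSMB8, an immunoproteasome subunit, was at 40.2, 36.3 and 42.1 TPM in PANC-1 and 2.93, 2.78 and 3.02 TPM in MIA-PaCa2 (3.37 ± 0.08). The heavy chain gene HLA-C was higher by 2.37, and HLA-B missed the 2-fold minimum (0.49 ± 0.08). HLA genes are polymorphic and alike, so their levels depend on how well each line's alleles match the annotation.

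The remaining run of neighbouring genes, CXCL8 to SHROOM3 on chromosome 4 (chr4:73740569-76783253), holds the neutrophil-attracting CXC chemokines, small secreted ligands of CXCR1 and CXCR2. In it 1 of 21 tested genes was higher and 12 were lower in PANC-1, with a median of -2.16. Like the other runs it was chosen by its values. Over all positioned coding genes tested, 18.1% were higher and 11.6% lower. The 60 bases from 110 to 50 before the start site of each of the 6 called CXCL genes, from RefSeq on GRCh38.p14, are shown because they share a stretch. The capitals mark GGAATTTCC, a form of the kappaB motif that NF-kB factors bind. The stretches are chr4:73869283-73869342 for CXCL1, chr4:73836568-73836627 for CXCL6 and chr4:73740459-73740518 for CXCL8 on the plus strand, and chr4:74099246-74099305 for CXCL2, chr4:74038740-74038799 for CXCL3 and chr4:73998728-73998787 for CXCL5 on the minus strand.
CXCL1: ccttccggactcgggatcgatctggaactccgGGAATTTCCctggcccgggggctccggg
CXCL2: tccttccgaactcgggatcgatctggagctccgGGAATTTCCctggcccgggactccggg
CXCL3: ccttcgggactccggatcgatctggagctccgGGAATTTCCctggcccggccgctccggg
CXCL5: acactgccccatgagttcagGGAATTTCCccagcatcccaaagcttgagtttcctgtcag
CXCL6: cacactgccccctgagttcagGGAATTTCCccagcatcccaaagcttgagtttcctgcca
CXCL8: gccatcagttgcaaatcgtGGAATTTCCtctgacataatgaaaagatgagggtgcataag

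All 6 promoters hold GGAATTTCC 1 time on either strand within 300 bases, with its first base 77 to 91 before the start site. Of 35116 RefSeq promoters of the same length 162 hold it (0.461%). The motif was marked because the 6 promoters share it, and several belong to close paralogs, so this rate gives no test of enrichment. The letters are those of the reference genome, not read from either line, and a match is a description only. CXCL5 was at 0, 0.0340 and 0.0683 TPM in PANC-1 and 166, 235 and 335 TPM in MIA-PaCa2 (-7.84). CXCL8, or interleukin 8, was at 0.879, 0.260 and 0.262 TPM in PANC-1 and 106, 123 and 93.1 TPM in MIA-PaCa2 (-6.22 ± 0.16), and CXCL1 was at 3.74, 2.68 and 1.24 TPM in PANC-1 and 123, 104 and 143 TPM in MIA-PaCa2 (-5.19 ± 0.26). CXCL2, CXCL3 and CXCL6 were at most 0.168 TPM in PANC-1 and between 5.11 and 16.1 TPM in MIA-PaCa2. CXCL1, CXCL2 and CXCL3 are close paralogs, as are CXCL5 and CXCL6, so the split of reads within these groups is uncertain.

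Other cytokines and NF-kB genes went in both directions. Of 24 tested in the list, 10 (41.7%) were higher and 9 (37.5%) lower in PANC-1, against 18.1% and 12.3% of all genes. Of the lower ones, 6 are the CXCL genes above. The other lower ones were CSF3, a granulocyte growth factor (at most 0.0578 TPM in PANC-1 and at least 7.06 TPM in MIA-PaCa2), the interleukin 1 receptor IL1R1 (5.03, 4.69 and 5.20 TPM in PANC-1, 109, 97.0 and 68.4 TPM in MIA-PaCa2) and the chemokine receptor CXCR4 (1.74, 4.42 and 5.81 TPM in PANC-1, 26.8, 24.7 and 10.1 TPM in MIA-PaCa2). CCL2, a monocyte chemokine, was at 25.9, 19.1 and 17.6 TPM in PANC-1 and listed at 0 in all of MIA-PaCa2. ICAM1, an adhesion ligand of leukocyte integrins, IL18, an interleukin 1 family cytokine, and BIRC3, an NF-kB target that inhibits apoptosis, were higher in PANC-1 by 5.80, 4.92 and 3.33.

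Growth factor pathways differed in which ligands and receptors were present. In the EGF family, 3 of 9 tested genes (33.3%) were higher and 5 (55.6%) lower in PANC-1, against 18.1% and 12.3% of all genes. Its ligands EREG, or epiregulin (3.15, 2.34 and 1.59 TPM in PANC-1, 147, 159 and 162 TPM in MIA-PaCa2), and BTC, or betacellulin (-3.70), were lower in PANC-1 together with AREG, given above. EREG, BTC and AREG are neighbours in the chromosome 4 run from CXCL8 to SHROOM3. The receptor EGFR was higher, at 156, 173 and 187 TPM in PANC-1 and 63.3, 60.1 and 74.8 TPM in MIA-PaCa2 (1.37 ± 0.07), and ERBB2 lower, at 25.1, 31.1 and 29.1 TPM in PANC-1 and 88.1, 90.3 and 84.0 TPM in MIA-PaCa2 (-1.59 ± 0.08). Of 15 receptor tyrosine kinases 6 (40%) were higher and 4 (26.7%) lower. MET, the hepatocyte growth factor receptor, was at 99.0, 119 and 132 TPM in PANC-1 and 10.2, 12.3 and 11.4 TPM in MIA-PaCa2, its relative MST1R at 35.3, 28.3 and 26.7 TPM in PANC-1 and at most 1.12 TPM in MIA-PaCa2, and DDR2, a collagen receptor, at most 0.443 TPM in PANC-1 and at least 49.1 TPM in MIA-PaCa2.

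In TGF-beta and BMP signalling 10 of 25 tested genes (40%) were higher and 5 (20%) lower in PANC-1. The shares over all genes tested were 18.1% and 12.3%. Beside the receptor TGFBR2, the ligand TGFB2 was at 9.38, 14.3 and 12 TPM in PANC-1 and at most 0.0926 TPM in MIA-PaCa2, and the signal transducer SMAD3 was at 239, 267 and 266 TPM in PANC-1 and 47.4, 52.0 and 41.3 TPM in MIA-PaCa2 (2.44 ± 0.09). BMP7, a ligand of the BMP branch, was at 1.52, 1.51 and 1.26 TPM in PANC-1 and 22.1, 24.6 and 22.7 TPM in MIA-PaCa2, and the BMP targets ID2 and ID3 were lower too (-1.14 and -2.00). In the Wnt list 12 of 25 (48%) were higher and 2 (8%) lower. The ligand WNT7B was at 117, 117 and 126 TPM in PANC-1 and at most 0.354 TPM in MIA-PaCa2 (6.56 ± 0.08), and the secreted modulators DKK3, SFRP1 and DKK1 were higher by 6.80, 4.90 and 2.96, whereas TCF7, a transcription factor of the pathway, was at 7.68, 4.92 and 5.12 TPM in PANC-1 and 200, 160 and 248 TPM in MIA-PaCa2 (-4.88 ± 0.16). Of 21 Hippo pathway targets and regulators 9 (42.9%) were higher and 1 (4.76%) lower. The YAP targets CTGF and CYR61 were at 118, 93.5 and 88.9 TPM and at 594, 614 and 594 TPM in PANC-1, against 0.981, 1.91 and 1.78 TPM and 84.5, 130 and 97.9 TPM in MIA-PaCa2, and the coactivator YAP1 was higher by 1.51.

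Matrix receptors were mostly higher in PANC-1. Of 16 tested integrins and laminins 11 (68.75%) were higher and 1 (6.25%) lower, with a median of 1.59. Over all genes tested, 18.1% were higher and 12.3% lower. ITGA2, a subunit of the collagen receptor, was at 124, 106 and 114 TPM in PANC-1 and at most 0.124 TPM in MIA-PaCa2 (6.72 ± 0.08). The exception was ITGB4, the laminin receptor subunit of hemidesmosomes, at 8.37, 7.23 and 4.88 TPM in PANC-1 and 113, 105 and 172 TPM in MIA-PaCa2 (-4.06 ± 0.26). Of 14 matrix proteases and plasminogen activators 4 (28.6%) were higher and 6 (42.9%) lower. The lower ones included the inhibitors TIMP2 (38.6, 36.8 and 38.9 TPM in PANC-1, 595, 574 and 543 TPM in MIA-PaCa2) and SERPINE2 (at most 1.10 TPM in PANC-1 and at least 39.0 TPM in MIA-PaCa2). Guidance receptors and ligands were split, with 9 of 26 (34.6%) higher and 7 (26.9%) lower. EPHB6, a kinase-dead ephrin receptor, was at 245, 124 and 79.2 TPM in PANC-1, so that the LPCX library was highest, and at most 0.184 TPM in MIA-PaCa2 (6.92 ± 0.28), while EPHA4 was at most 0.223 TPM in PANC-1 and at least 64.8 TPM in MIA-PaCa2.

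Drug and detoxification genes were called in both directions. Of 28 tested NRF2 targets and xenobiotic enzymes 8 (28.6%) were higher and 9 (32.1%) lower in PANC-1. All genes tested were also called in both directions, with 18.1% higher and 12.3% lower. AKR1C1, a steroid and aldehyde reductase that has close paralogs, was at most 0.253 TPM in PANC-1 and 146, 111 and 155 TPM in MIA-PaCa2 (-6.93 ± 0.10), and the quinone reductase NQO1 was at 71.7, 73.0 and 69.0 TPM in PANC-1 and 426, 440 and 345 TPM in MIA-PaCa2 (-2.48 ± 0.07). The efflux pump ABCC1 was higher in PANC-1, at 248, 264 and 260 TPM, against 52.5, 52.3 and 62.0 TPM in MIA-PaCa2 (2.19 ± 0.07). Of 19 genes of gemcitabine uptake and nucleoside metabolism, the handling of a main drug of this cancer, 6 (31.6%) were higher and 2 (10.5%) lower. The nucleoside transporter SLC29A1 was at 314, 319 and 317 TPM in PANC-1 and 114, 118 and 115 TPM in MIA-PaCa2 (1.45 ± 0.05). DCK, the kinase that activates gemcitabine, was at 71.4, 68.2 and 65.3 TPM in PANC-1 and 26.7, 29.5 and 27.2 TPM in MIA-PaCa2 (1.27 ± 0.07). DPYD, the enzyme that breaks down pyrimidines and fluorouracil, was at 0.822, 0.385 and 0.163 TPM in PANC-1 and 79.7, 73.1 and 85.5 TPM in MIA-PaCa2 (-5.81 ± 0.15). Drug response was not measured.

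In metabolism, 7 of 31 glycolysis and hypoxia genes were higher and 8 lower, 8 of 28 cholesterol and fatty acid genes were higher and 2 lower, and 1 of 19 genes of serine synthesis and ATF4 signalling was higher and 6 lower, beside 18.1% higher and 12.3% lower over all genes tested. FADS2, a fatty acid desaturase, was at 253, 346 and 330 TPM in PANC-1 and 15.5, 14.5 and 14.6 TPM in MIA-PaCa2 (4.28 ± 0.12). PHGDH, the first enzyme of serine synthesis, was at 39.4, 26.7 and 18.7 TPM in PANC-1 and 112, 98.3 and 123 TPM in MIA-PaCa2 (-2.00 ± 0.22). Of 31 genes of DNA replication 1 was higher and 3 lower, shares below those over all genes. Of 76 cytosolic ribosomal protein genes 1, RPS16, was higher and 19 were lower, with a median of -0.56. The 76 genes summed to 146000, 130200 and 127700 TPM in PANC-1 and 161500, 154300 and 151800 TPM in MIA-PaCa2. These sums include RPS16, at 21791 to 29840 TPM in PANC-1 and 1676 to 1851 TPM in MIA-PaCa2, a level that pseudogene copies make uncertain.

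**Figure D4:**
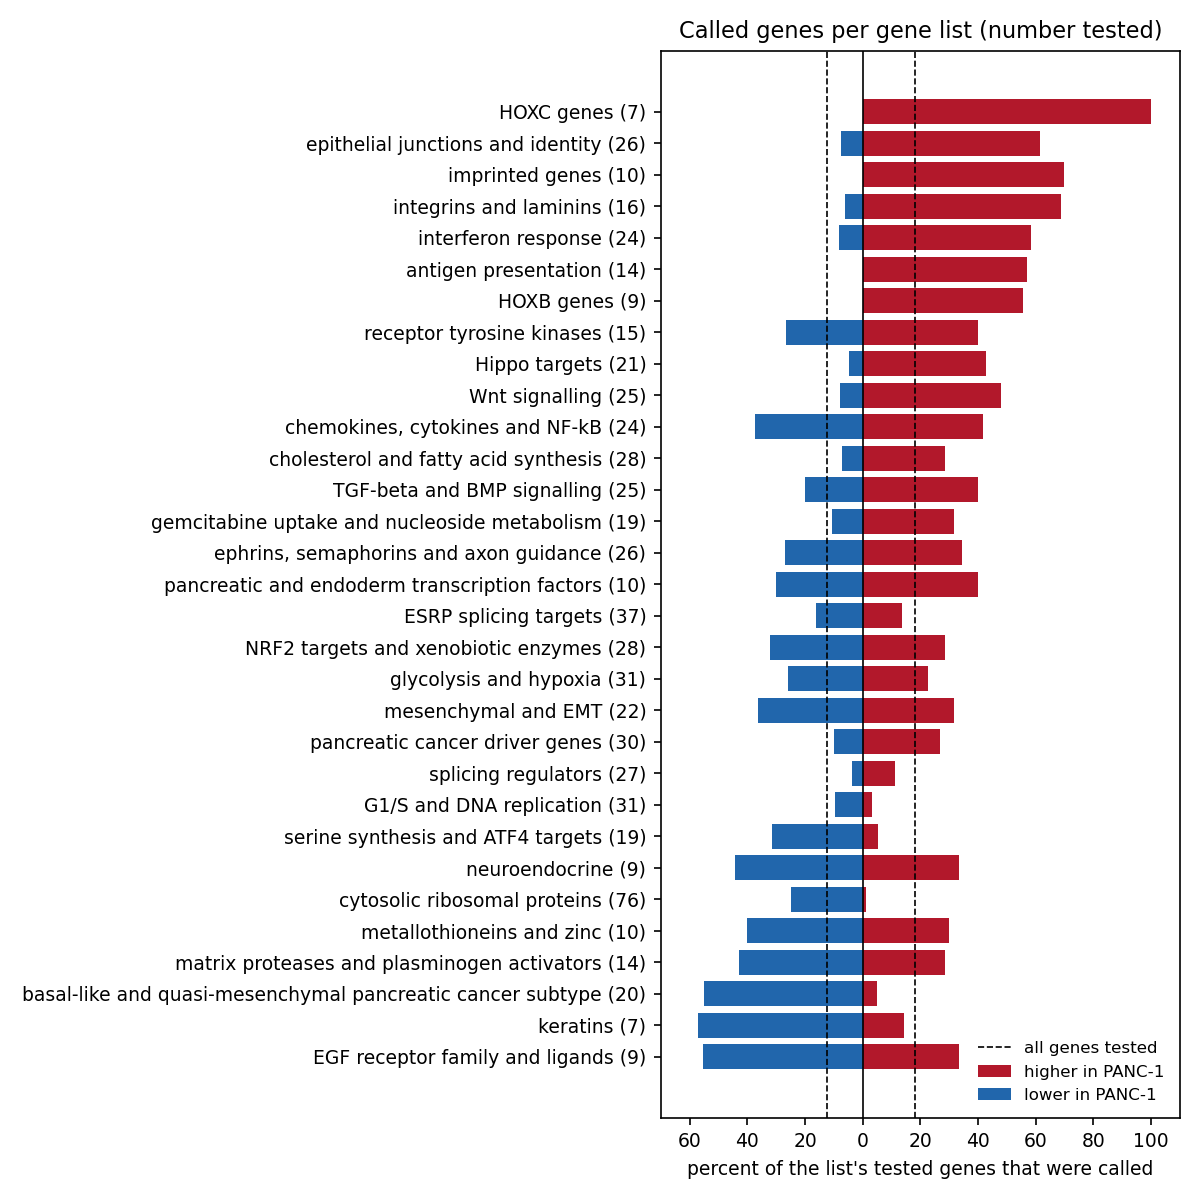
Percent of tested genes called higher (red, to the right) or lower (blue, to the left) in PANC-1 than in MIA-PaCa2, per gene list. Lists with 7 or more tested genes are shown, with the number tested in brackets. Dashed lines give the shares over all genes, 18.1% and 12.3%. HOXC, junction, imprinted, integrin and interferon lists lean to higher in PANC-1, and EGF family, keratin and basal-like lists to lower.

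Many genes used different transcripts in the lines. Among 12965 transcripts of 6003 genes, 802 (6.19%) had a higher and 861 (6.64%) a lower share of their gene's TPM in PANC-1, at an adjusted p of 0.05 and a mean change of 10 percentage points or more, and 988 genes (16.5%) had at least 1 such transcript. The counts fell when any library was left out, to 161 higher and 211 lower without PANC-1 LPCX, 87 and 113 without PANC-1 ESRP1, 114 and 157 without PANC-1 ESRP2, 186 and 191 without MIA-PaCa2 LPCX, 107 and 99 without MIA-PaCa2 ESRP1, and 132 and 136 without MIA-PaCa2 ESRP2. MEST, an imprinted hydrolase gene, gave the most complete switch. Its transcript NM_177524 made up 95.6, 94.6 and 95.1% of the gene in PANC-1 and 0% in all of MIA-PaCa2, and NM_002402 made up 1.34, 1 and 0% in PANC-1 and 99.2, 100 and 100% in MIA-PaCa2 (adjusted p = 0.000805 and 0.000578). Their first exons do not overlap and begin 5887 bases apart. The level of MEST itself was not called, at 35.4, 47.9 and 45.3 TPM in PANC-1 and 30.5, 25.1 and 13.8 TPM in MIA-PaCa2.

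FADS2 and RTKN likewise began at different first exons. NM_004265 of FADS2 was 93.7, 94.4 and 93.3% of the gene in PANC-1 and at most 0.833% in MIA-PaCa2. The FADS2 transcript with the largest gain in share in MIA-PaCa2 begins 11505 bases upstream, and its share is not given here. NM_001015055 of RTKN was 92.6, 96.2 and 93.8% in PANC-1 and at most 0.907% in MIA-PaCa2, with starts 1268 bases apart. The same held for PDE10A, a cyclic nucleotide phosphodiesterase, with starts 85652 bases apart, for SIGIRR, an inhibitory receptor of the interleukin 1 family, with 2421, and for LTBP4, a TGF-beta binding protein, with 4136. Of the LTBP4 transcripts, NM_001042544 lost its call without the ESRP2 libraries. Over all genes, 625 had called transcripts in both directions, 567 of them could be placed on the genome, and in 169 (29.8%) the first exons did not overlap.

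In others the switch lay inside the gene. NM_015602 of TOR1AIP1, a protein of the inner nuclear membrane, was 99.3, 100 and 99.8% in PANC-1 and 7.35, 5.94 and 7.36% in MIA-PaCa2, and the coding sequences of its paired transcripts differ by 3 bases in length. NM_001242581 of RIN2, a guanine exchange factor of RAB5, was 100% in all of PANC-1 and 5.28, 10.1 and 11.4% in MIA-PaCa2.

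Cassette exons, which are either kept or skipped, were read from the transcripts that hold or skip them, as a description with no test. Of 5055 exons in 3038 genes, 161 (3.18%) were included more and 130 (2.57%) less in PANC-1, by 10 percentage points or more with every construct. The exons below are shown because they keep the reading frame and the lines used them to different extents. The sequences are from GENCODE release 29 on GRCh38, with the exon in capitals and the 10 neighbouring transcript bases on each side in lower case. PTBP1 and MON2 were chosen after their values were seen.
APP, chr21:25997360-25997416, minus strand: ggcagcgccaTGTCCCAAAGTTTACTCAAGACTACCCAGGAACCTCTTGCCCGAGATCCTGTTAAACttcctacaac
EXOC7, chr17:76091143-76091235, minus strand: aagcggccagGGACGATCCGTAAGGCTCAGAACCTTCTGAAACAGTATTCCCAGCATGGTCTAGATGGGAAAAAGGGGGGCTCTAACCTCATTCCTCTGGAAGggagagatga
CD46, chr1:207767779-207767823, plus strand: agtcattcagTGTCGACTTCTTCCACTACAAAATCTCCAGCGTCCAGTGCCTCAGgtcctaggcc
PTBP1, chr19:805492-805569, plus strand: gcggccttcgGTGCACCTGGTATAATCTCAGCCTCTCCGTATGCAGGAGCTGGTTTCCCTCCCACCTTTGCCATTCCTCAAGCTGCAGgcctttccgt
MON2, chr12:62566014-62566031, plus strand: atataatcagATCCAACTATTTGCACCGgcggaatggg

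The 57-base exon of APP, the amyloid precursor protein, was included at 60.5, 62.9 and 59.0% in PANC-1, against 22.5, 31.0 and 25% in MIA-PaCa2. The 93-base exon of EXOC7, a subunit of the exocyst that tethers vesicles, was at 10.7, 8.07 and 8.15% in PANC-1 and 53.2, 52.7 and 45.6% in MIA-PaCa2. The 45-base exon of CD46, a complement regulator, was at 33.9, 32.7 and 28.2% in PANC-1 and 67.3, 64.3 and 65.3% in MIA-PaCa2. The 78-base exon of PTBP1, itself a repressor of exons, was at 80.6, 82.8 and 81.3% in PANC-1 and 51.0, 49.8 and 47.6% in MIA-PaCa2. The 18-base exon of MON2, a protein of endosome traffic, was at 75.1, 73.8 and 70.9% in PANC-1 and 39.5, 30.5 and 39.2% in MIA-PaCa2. In all of these the LPCX libraries stood with the ESRP libraries of their own line.

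**Figure D5:**
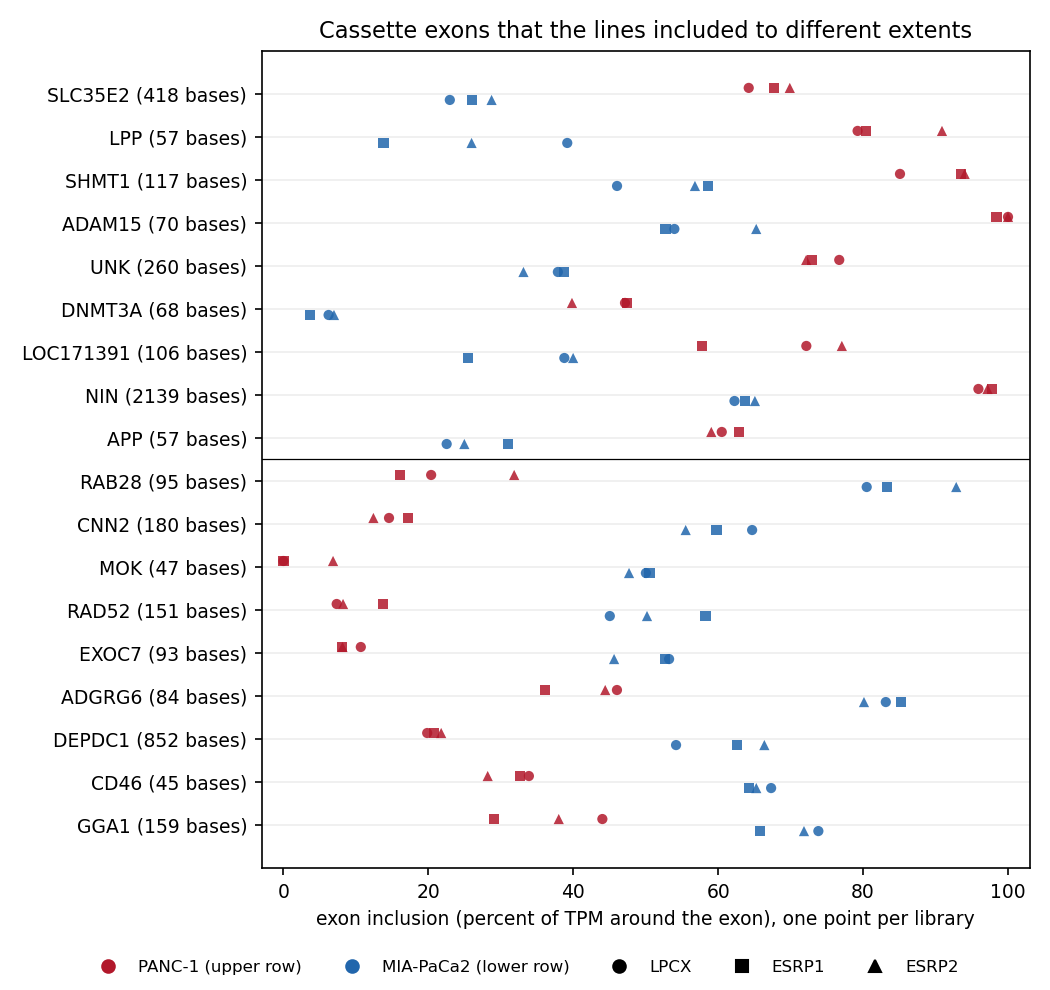
Inclusion of 9 of the 10 cassette exons most above (upper part) and 9 of the 10 most below (lower part) in PANC-1, as percent of the TPM around the exon; red points in the upper row are PANC-1 and blue points in the lower row MIA-PaCa2, with a shape for each construct. The lines do not overlap for any of these exons, which were chosen for that difference.

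Among 27 tested splicing regulators 3 (11.1%) were higher and 1 (3.70%) lower in PANC-1, below the 18.1% and 12.3% of all genes tested. Their median was -0.22. KHDRBS3, an RNA-binding STAR protein, was at 22.6, 25.2 and 26.9 TPM in PANC-1 and at most 0.673 TPM in MIA-PaCa2 (4.03 ± 0.10). RBM47, a factor of epithelial cells, was at 0.777, 0.892 and 0.567 TPM in PANC-1 and 41.3, 37.5 and 41.1 TPM in MIA-PaCa2 (-4.56 ± 0.11). The others called higher were RBM24 and ESRP2. PTBP1 was at 357, 407 and 413 TPM in PANC-1 and 513, 537 and 543 TPM in MIA-PaCa2 and missed the 2-fold minimum (-0.44 ± 0.06). Of 37 genes whose exons ESRP proteins regulate, 5 were higher and 6 lower in level, close to the shares over all genes.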

How the data were processed

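Total RNA from 6 cell line samples was made into libraries with a TruSeq mRNA kit, per the labels' protocols. Salmon and GRCh38 (hg38) are named in the submitters' processing notes, with the Salmon version not given in the sources used here. A signal per RefSeq transcript was deposited by the authors as TPM, in a table of 67792 lines. Of these, 8664 repeat another transcript with identical values and were dropped, which left 59128 transcripts in 27408 genes and a sum of 1000000 TPM in each library. The headers misspell the construct of MIA-PaCa2 ESRP2 and the line name of MIA-PaCa2 LPCX, so these columns were assigned by elimination. TPM keeps no read counts, so depth cannot be told and values carry no counting interval.

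TPM were summed by gene symbol. For 11829 genes that reached 5 TPM in 2 libraries or more, log2(TPM + 1) was fitted in limma 3.58.1 (R 4.3.3) with construct and line as terms and a variance trend, which leaves 2 residual degrees of freedom. The construct term is the block that pairs the libraries, by the construct in the labels. A difference is PANC-1 minus MIA-PaCa2, with its SE. Variances were moderated over genes by limma's empirical Bayes step, with 3.42 prior degrees of freedom beside the 2 residual ones. SEs and p-values therefore borrow from other genes. Genes were called at a Benjamini-Hochberg adjusted p of 0.05 and 2-fold. The pseudocount of 1 understates the change of low genes. Transcript shares were fitted in the same model as log2 odds with a pseudocount of 0.5 TPM, for transcripts with at least 10% of a gene that had at least 5 TPM in every library. RefSeq transcripts were placed with GENCODE release 29, and exon inclusion needed at least 5 TPM around the exon and 90% of the gene's TPM in placed transcripts in every library. Shares and inclusion rest on the authors' split of reads between overlapping transcripts. Gene positions are RefSeq's on GRCh38. Both fits were run on simulated data with known changes and independent noise, without the 2-fold and 10-point minimums. Such data cannot stand in for repeat cultures of a line.

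The comparison and the gene lists were chosen with earlier results of these data known. Named genes were lineage and driver genes chosen by hand, the 15 highest and 15 lowest called coding genes, the 10 most abundant called per direction, up to 4 called members per list and direction, and the 10 transcripts and 10 exons per direction with the largest change in every construct; not all of them are printed. Other list members in the text, most of them further called ones, were named after their values were seen. XIST and Y-linked genes were left out. Results for some genes and sequences are not reported here.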

Additional observations from a re-analysis of the deposited data

How the results depend on the processing

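The counts of called genes stayed within 1.5 times of 2144 higher and 1453 lower under pseudocounts of 0.1 and 5 TPM, other filters, median ratio scaling (1978 and 1607), coding transcripts only, no construct term (2136 and 1449), no variance trend, and on leaving out each library (2088 to 2171 higher, 1415 to 1483 lower). With an adjusted p alone there were 5102 higher and 4217 lower, and with a 4-fold minimum 907 and 502. For transcript shares, a step of 20 points gave 329 higher and 339 lower, and a gene level of at least 20 TPM gave 556 and 571. On leaving out each library they ranged from 87 to 186 higher and from 99 to 211 lower. Exons with at least 20 TPM around them were 93 included more and 70 less. No direction reversed. Of 246 named genes, 74 changed call under some setting, 66 of them under the 4-fold minimum and 9 on leaving out a library, among them ESRP2, HES1, HOXA3, LRP6, MCM6, NRG2, PLAU and RPL27. Of 20 named transcripts 1 changed, in LTBP4. The median of every list kept its sign under median ratio scaling except that of NRF2 targets (-0.03, against 0.04). The cause of these shifts was not tested. With 1 library per line and construct, differences between cultures of a line could not be measured.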

Other observations

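Metallothionein and hypoxia genes included members called in opposite directions. Among 10 tested metallothionein and zinc genes, which bind and carry metals, 3 (30%) were higher and 4 (40%) lower in PANC-1. Shares for 31 glycolysis and hypoxia genes were 22.6% and 25.8%, and those for all genes tested 18.1% and 12.3%. MT1G was listed at 0 in all of PANC-1 and stood at 28.1, 21.9 and 20.5 TPM in MIA-PaCa2, whereas MT1M stood at 3.80, 5.28 and 5.35 TPM in PANC-1 and was listed at 0 in all of MIA-PaCa2. MT1E was at 368, 483 and 506 TPM in PANC-1 and 1354, 1171 and 1679 TPM in MIA-PaCa2 (-1.63 ± 0.12). These genes are near-identical, so the split of reads between them is uncertain. Among hypoxia genes, EPAS1 and HIF1A, which encode alternative alpha subunits of hypoxia-inducible factors, also went opposite ways. EPAS1, or HIF-2 alpha, was at 87.8, 105 and 117 TPM in PANC-1 and 10.6, 13.8 and 8.73 TPM in MIA-PaCa2 (3.13 ± 0.16), and HIF1A was at 70.9, 81.3 and 81.8 TPM in PANC-1 and 184, 191 and 166 TPM in MIA-PaCa2 (-1.20 ± 0.08). BNIP3, a mitophagy receptor and hypoxia target, was at 102, 117 and 109 TPM in PANC-1 and at most 0.494 TPM in MIA-PaCa2, while the glucose transporter SLC2A3 was at 1.57, 1.76 and 1.75 TPM in PANC-1 and 43.6, 36.4 and 63.2 TPM in MIA-PaCa2.

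A few developmental genes were among those on in a single line, named after their values were seen. LIN28B, an RNA-binding protein that blocks let-7 microRNAs, was at 6.38, 7.51 and 8.51 TPM in PANC-1, and FOXF2, a mesenchymal forkhead factor, at 31.9, 31.4 and 32.3 TPM, and both were listed at 0 in MIA-PaCa2. IGF2BP1, an oncofetal mRNA-binding protein, was at 25.1, 26.6 and 26.7 TPM in PANC-1 and at most 0.0386 TPM in MIA-PaCa2. NKX2-5, a homeobox factor of heart development, was listed at 0 in PANC-1 and stood at 23.5, 26.2 and 24.9 TPM in MIA-PaCa2. Of 33 cancer-testis antigens 3 were tested and 2 were higher in PANC-1, PRAME (118, 120 and 118 TPM in PANC-1, 45.7, 45.1 and 42.2 TPM in MIA-PaCa2) and DDX43 (27.7, 32.0 and 35.3 TPM in PANC-1, at most 0.0699 TPM in MIA-PaCa2). Over all genes tested, 18.1% were higher and 12.3% lower, and 3 tested genes are too few to describe the list.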
